A study of Mus musculus with 4 samples.

Results

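The genes described here are those of the CD3 chains and of the coreceptors that T cells carry beside their antigen receptor: Cd3d, Cd3e, Cd3g, Cd247, Cd4, Cd8a, Cd8b1, Cd5, Cd6 and Cd28. They were chosen by gene symbol, with earlier results of these data known. All 10 were found among the 22558 genes of the count table. They also passed the limits on low values that left 11711 genes for testing. Their RNA was measured in group 2 innate lymphoid cells (ILC2s) sorted from the lungs of mice aged 6 weeks on a C57BL/6 background. WT libraries 1 and 2 came from wildtype mice, and ICAM-1 KO libraries 1 and 2 came from mice with the constitutive Icam1 allele tm1Jcgr. In the study, the strain name of the ICAM-1 deficient mice includes a donor strain, and that of the wildtype mice does not. Strain and allele cannot be told apart here. Every library was a pool of 4 mice, and mice of both genotypes had received 3 intranasal doses of 0.5 µg rmIL-33 before the lungs were taken on day 4.

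The CD3 delta, epsilon and gamma chains (Cd3d, Cd3e and Cd3g) and the zeta chain (Cd247) assemble with the T cell receptor and carry its signal into the cell through tyrosine motifs in their tails. CD4 and CD8 bind MHC class II and class I molecules and bring the kinase LCK to the receptor, CD5 and CD6 are scavenger-type receptors that temper the signal, and CD28 adds a costimulatory signal when it meets CD80 or CD86. ILC2s are defined by the absence of a surface T cell receptor, yet they share much of their developmental programme with T cells and can hold RNA of CD3 chains and of rearranged or unrearranged receptor genes. The sort used these proteins directly: CD3ε, CD4 and CD5, 3 of the 10 gene products, were targets of the lineage antibodies whose positive cells were discarded, and CD8 was not among the targets the study lists.

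The libraries held 24796148 to 28782471 counts, and the Pearson correlation between them was 0.966 within WT, 0.969 within ICAM-1 KO and 0.931 to 0.938 between the genotypes. For Icam1 itself the count was 2579 and 2630 in WT and 2812 and 3453 in the other libraries, which edgeR put at a log2 fold change of 0.33 with a standard error of 0.108 (adjusted p = 0.0745). Its RNA was therefore not lower where the label says knockout, the counts do not show which exons were read, and the libraries with that label are called KO-labelled libraries throughout. The ILC2 factor Gata3 stood at 425.3 to 536.9 normalized counts in the 4 libraries, where a normalized count is the count plus 1 scaled by 1 upper quartile factor per library. Nothing states how the pools were split between sorts, so the p-values measure only the spread between these libraries, which may be technical.

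Of the 4 CD3 and zeta chain genes, 3 lie together on chromosome 9 of mm10. Cd3g spans 44969572 to 44980431 on the minus strand, Cd3d spans 44981786 to 44987339 on the plus strand, and Cd3e spans 44998740 to 45009627 on the minus strand. The starts of Cd3g and Cd3d face away from each other across a gap of 1354 bases, and 11400 bases separate Cd3d from Cd3e. The targeted gene Icam1 lies on the same chromosome, from 21015985 to 21028817 on the plus strand. Whether sequence of the donor strain reaches from Icam1 to the CD3 genes was not tested. Because Cd3d was called higher and its neighbours were not, a difference between them that no test showed, the 250 bases before each start are shown, read 5′ to 3′ on the strand of the gene from the RefSeq table of GRCm38.p6, which matched 6 of the 10 genes. Capitals mark E-boxes, the letters CANNTG, which read alike on both strands and are bound by E proteins, activators of many T cell genes.
Cd3g, chr9:44980432-44980681, minus strand: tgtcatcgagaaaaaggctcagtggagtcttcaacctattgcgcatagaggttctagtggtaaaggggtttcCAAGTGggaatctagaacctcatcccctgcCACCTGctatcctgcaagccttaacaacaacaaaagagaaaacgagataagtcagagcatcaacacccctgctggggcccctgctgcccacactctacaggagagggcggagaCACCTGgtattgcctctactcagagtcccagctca
Cd3d, chr9:44981536-44981785, plus strand: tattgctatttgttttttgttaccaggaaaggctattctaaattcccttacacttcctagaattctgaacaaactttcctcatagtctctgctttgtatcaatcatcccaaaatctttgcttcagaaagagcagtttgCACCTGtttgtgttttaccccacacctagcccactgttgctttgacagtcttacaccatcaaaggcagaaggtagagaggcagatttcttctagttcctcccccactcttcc
Cd3e, chr9:45009612-45009861, minus strand: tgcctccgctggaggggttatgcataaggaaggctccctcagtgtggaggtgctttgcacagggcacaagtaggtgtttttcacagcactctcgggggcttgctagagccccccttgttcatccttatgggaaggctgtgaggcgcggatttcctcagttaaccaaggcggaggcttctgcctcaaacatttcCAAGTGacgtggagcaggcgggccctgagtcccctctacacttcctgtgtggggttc

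Cd3g held 3 E-boxes in this window, and Cd3d and Cd3e held 1 each. An E-box was present in 66.2% of the 32851 promoters of the table in windows of the same length, so its presence does not set these genes apart. The letters GGAA, the core bound by ETS factors such as ETS1, were searched on both strands and occurred 2 times before Cd3g, 6 times before Cd3d and 5 times before Cd3e, against 93.4% of all promoters with at least 1 match. In Cd3g and in Cd3e 1 E-box shared a base with a GGAA match. The letters TATAAA, searched on both strands, were absent from all 3 windows and present in 12.4% of all promoters. The GC content was 51.6% before Cd3g, 41.2% before Cd3d and 57.2% before Cd3e. For Cd3e, on the minus strand, the gene starts at 45009627 in the deposited coordinates, so the last bases shown lie within a longer transcript.

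Cd3d was higher in the KO-labelled libraries, whereas Cd3e and Cd3g were not. Cd3d had 19.1 and 37.7 normalized counts in the WT libraries and 71.3 and 85.9 in the KO-labelled libraries. The groups did not overlap, although WT library 2 held nearly as much again as WT library 1. The mean rose from 28.4 ± 13.1 (SD, n = 2) to 78.6 ± 10.3 (SD, n = 2), a log2 fold change of 1.49 with a standard error of 0.255 (adjusted p = 0.00796, edgeR). Cd3e had 30.8 and 50.7 normalized counts in WT and 37.5 and 52.2 in the KO-labelled libraries. These groups overlapped, library 2 being the higher of each genotype, and the log2 fold change was 0.17 with a standard error of 0.239 (adjusted p = 0.69, edgeR). Cd3e overlaps the antisense gene Gm48719 and the gene Gm48720 in the annotation, so reads of these could be shared with it. Gm48720 had 13 and 15 counts in WT and 25 and 19 in the KO-labelled libraries, where Cd3e had 933 and 1599 in WT and 1079 and 1636 in the KO-labelled libraries.

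Cd3g, the most abundant of the CD3 genes per kb, went the other way in its values. It had 114 and 127 normalized counts in WT and 81.1 and 107 in the KO-labelled libraries, so the groups did not overlap. The log2 fold change was -0.33 with a standard error of 0.142 (adjusted p = 0.158, edgeR) and was not called, but without ICAM-1 KO library 2 it was -0.55 with an adjusted p of 0.0169. Cd247 lies apart from the others, on chromosome 1 from 165788681 to 165877277 on the plus strand. Its values were 22.0 and 44.6 normalized counts in WT and 53.4 and 54.6 in the KO-labelled libraries. Both of the latter were above both WT libraries, but the WT libraries differed from each other by more than the group means did. Its log2 fold change of 0.72 with a standard error of 0.261 (adjusted p = 0.0995, edgeR) was not called, and without WT library 2 it was 1.32 with an adjusted p of 0.00748. Cd247 overlaps 6 annotated genes, among them the protein-coding Pou2f1 on the opposite strand with 463 to 788 counts, and the sources used here do not say if reads were counted by strand.

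**Figure D1:**
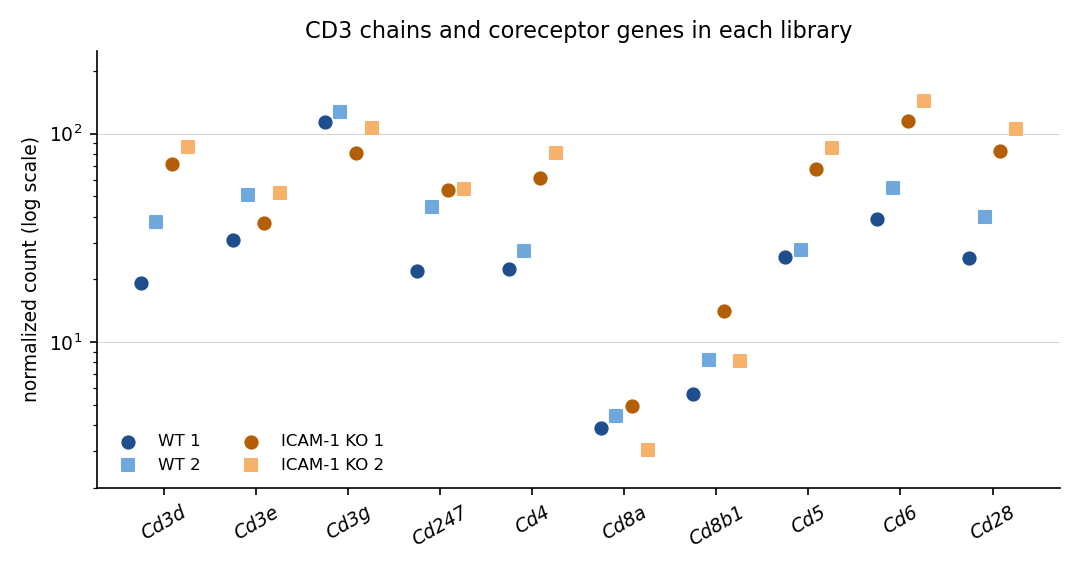
Normalized counts (log scale) of the 10 genes in each of the 4 libraries, with circles for library 1 and squares for library 2 of a genotype. For Cd3d, Cd4, Cd5, Cd6 and Cd28 both orange points (ICAM-1 KO) lie above both blue points (WT), whereas for Cd3e, Cd8a and Cd8b1 the colours interleave.

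The make-up of the CD3 genes within a library does not depend on its scaling. Per kb of the longest protein-coding transcript, Cd3g gave 77.1% and 68.2% of the summed level of the 3 CD3 genes in the WT libraries and 53.2% and 54.1% in the KO-labelled libraries. Cd3d gave 8.23% and 12.8% in WT and 29.6% and 27.5% in the KO-labelled libraries. Cd3e stayed between 14.7% and 19.0% in all 4 libraries. With the union of all exons as the length, Cd3d gave 20.0% and 28.8% in WT and 53.6% and 51.0% in the KO-labelled libraries, so the shift had the same direction on both scales while the gene with the larger share in the KO-labelled libraries did not stay the same. As counts, without regard to length, Cd3g exceeded Cd3d 5.94 and 3.38 times in WT and 1.14 and 1.25 times in the KO-labelled libraries, a ratio chosen after the values were seen.

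**Figure D2:**
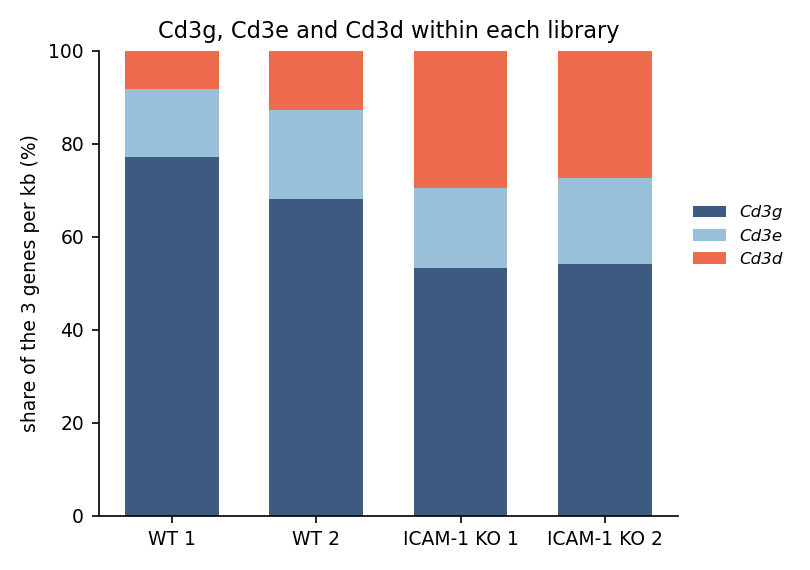
Share of Cd3g, Cd3e and Cd3d in the summed level of the 3 genes in each library, in percent, with levels per kb of the longest protein-coding transcript. The Cd3d share is 8.23% and 12.8% in the WT bars and 29.6% and 27.5% in the ICAM-1 KO bars, while the Cd3e share stays between 14.7% and 19.0%.

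Both tests of ratio that concern this shift could show no more than that the groups did not overlap. The count of Cd3d was 0.621 and 0.744 times that of Cd3e in WT and 1.90 and 1.65 times in the KO-labelled libraries. Cd3g was 3.69 and 2.51 times Cd3e in WT and 2.17 and 2.05 times in the KO-labelled libraries. With 2 libraries a group, a two-sided exact permutation test cannot go below p = 0.333. Every ratio whose groups do not overlap takes that value, as both of these did, and their adjusted value over the 12 ratios tested was 0.444. The fit across genes does not compare one gene's change with another's, so that Cd3d and Cd3e changed by different amounts was not shown by a test.

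Cd4 rose 2.92-fold in the KO-labelled libraries while neither CD8 gene passed the test. Cd4, on chromosome 6 from 124864692 to 124888221 on the minus strand, had 22.3 and 27.3 normalized counts in WT and 61.5 and 80.5 in the KO-labelled libraries. The groups were far apart relative to the spread within each, with a log2 fold change of 1.55 with a standard error of 0.175 (adjusted p = 0.00143, edgeR). Cd8a, the chain found in both forms of CD8, was the lowest of the 10 genes, at 3.86 and 4.40 normalized counts in WT and 4.96 and 3.03 in the KO-labelled libraries, or 94 to 142 counts. Its groups overlapped (log2 fold change -0.04, standard error 0.386, adjusted p = 0.962, edgeR). Cd8b1, which encodes the beta chain of the conventional CD8 heterodimer and starts the pair on chromosome 6, 35932 bases before Cd8a, had 5.65 and 8.17 normalized counts in WT and 14.1 and 8.09 in the KO-labelled libraries. The rise rested on ICAM-1 KO library 1, the other library lying just below WT library 2, and the log2 fold change of 0.70 had a standard error of 0.343 and an adjusted p of 0.208. Counts of Cd8a were 0.682 and 0.537 times those of Cd8b1 in WT and 0.351 and 0.372 times in the KO-labelled libraries, with the smallest exact permutation p of 0.333.

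Cd5 and Cd6, paralogues that lie 50366 bases apart on chromosome 19, rose together. Cd5 had 25.6 and 27.7 normalized counts in WT and 67.8 and 85.3 in the KO-labelled libraries (log2 fold change 1.55, standard error 0.153, adjusted p = 0.000711, edgeR). Its WT libraries were the closest to each other among the 5 genes that rose. Cd6, the highest of the coreceptors per kb of the longest protein-coding transcript, had 39.1 and 55.1 normalized counts in WT and 115 and 143 in the KO-labelled libraries (log2 fold change 1.48, standard error 0.172, adjusted p = 0.00148, edgeR). The transcript A430093F15Rik, which starts 1972 bases beyond Cd5 on the other strand and lies between the pair, had 125 and 117 counts in WT and 204 and 351 in the KO-labelled libraries, a log2 fold change of 1.26 (adjusted p = 0.0455, edgeR). Across all 10 genes, 36 other genes lay within 50 kb and 17 of them were tested. That transcript was the 1 called higher, and the 2 called lower, Slc15a3 (log2 fold change -0.57) and Tmem109 (log2 fold change -0.46), lie near Cd6. Over all genes tested 8.8% were called higher and 4.97% lower. Lag3, a relative of Cd4 that lies 16139 bases from it, had 11 to 17 counts and did not reach the limit for testing.

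Cd28, on chromosome 1 from 60716800 to 60773359 on the plus strand, had 25.4 and 39.8 normalized counts in WT and 82.5 and 105 in the KO-labelled libraries. Both of the latter exceeded both WT libraries, with a log2 fold change of 1.55 with a standard error of 0.204 (adjusted p = 0.00271, edgeR). Among the listed ligands of these receptors and of the CD28 relative ICOS, 3 of 8 tested rose, against 8.8% of all genes tested. H2-K1 was called lower by DESeq2 and limma but not by edgeR. Cd80, a ligand of CD28, had 3.70 and 5.38 normalized counts in WT and 11.7 and 14.1 in the KO-labelled libraries (log2 fold change 1.54, adjusted p = 0.0132, edgeR). The class II genes H2-Aa and H2-Ab1, whose products CD4 binds, rose by 0.86 each on the log2 scale. Cd86, the other ligand of CD28, had a log2 fold change of 1.31 (adjusted p = 0.051, edgeR), and Alcam, the ligand of CD6, one of 0.10 (adjusted p = 0.829). The class I genes H2-K1 and H2-D1 had log2 fold changes of -0.27 and -0.15 and were not called by edgeR.

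In all, 5 of the 10 genes were called higher at an adjusted p under 0.05, each by at least 2-fold. None was called lower by edgeR, DESeq2 or limma, and 1, Cd3g, was lower at an unadjusted p under 0.05 (0.0465, edgeR). Over all 11711 genes tested 13.8% were called in either direction, 8.8% higher and 4.97% lower, and 4.94% were called at least 2-fold higher. Both KO-labelled libraries lay above both WT libraries for 6 of the 10 genes, the 5 called ones and Cd247, against 28.3% of all genes tested. The log2 fold changes of the 5 lay between 1.48 and 1.55, nearer to each other than the smallest of their standard errors, 0.153. In the sorted pools more cells of a type and more RNA per cell cannot be told apart. CD4 and CD5 were targets of the antibodies used to discard cells, and so was CD3ε, whose gene was not called.

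**Figure D3:**
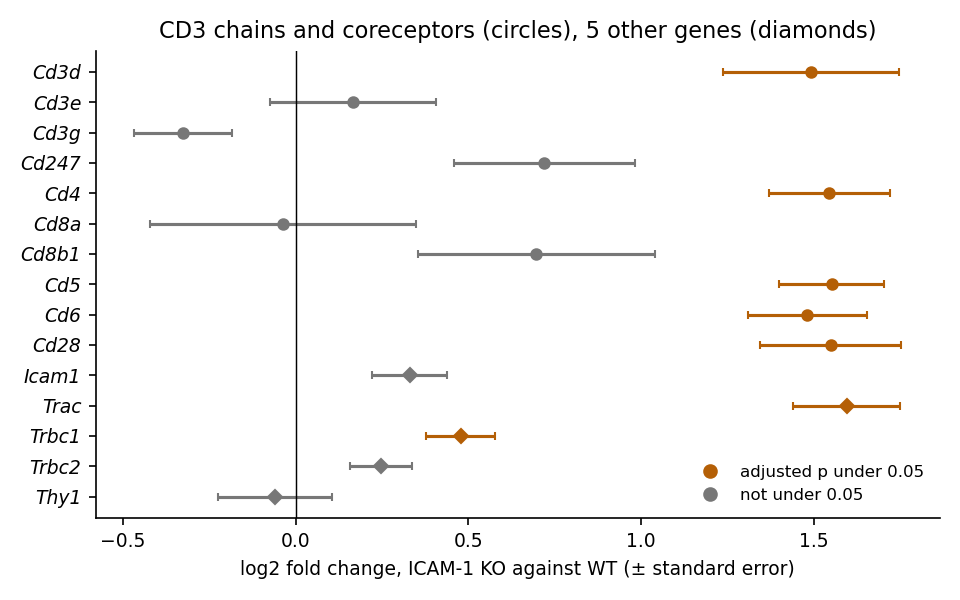
Log2 fold change of the KO-labelled libraries against WT with its standard error for the 10 genes (circles) and for Icam1, Trac, Trbc1, Trbc2 and Thy1 (diamonds), from the fit over 2 libraries a group. Cd3d, Cd4, Cd5, Cd6, Cd28 and Trac lie between 1.48 and 1.60, apart from Cd3e at 0.17 and Cd3g at -0.33.

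The receptor genes that the CD3 chains serve also gave unlike values. Trac, the constant gene of the alpha chain, had 58.8 and 78.7 normalized counts in WT and 183 and 225 in the KO-labelled libraries (log2 fold change 1.60, adjusted p = 0.000674, edgeR). Of the beta chain constant genes, Trbc1 rose by 0.48 on the log2 scale (adjusted p = 0.0169, edgeR) and Trbc2 had a log2 fold change of 0.25 (adjusted p = 0.0987). These beta genes are near-identical copies, so reads split between them are uncertain. Trdc, the delta constant gene, rose from 17 and 35 counts to 118 and 148, and the gamma gene Tcrg-C4, with 4271 to 4641 counts, had a log2 fold change of 0.13 (adjusted p = 0.399, edgeR). Of 7 constant genes tested 3 were called higher, against 8.8% of all genes tested. None of the 7 was lower by edgeR, DESeq2 or limma even at an unadjusted p under 0.05.

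Ratios of counts within a library set these genes beside each other, and the 3 of Cd4 to Trac, Cd4 to Cd5 and Cd3d to Trac were chosen after the values were seen. Cd4 was 0.379 and 0.347 times Trac in WT and 0.335 and 0.359 times in the KO-labelled libraries. The ratio of Cd4 to Cd5 was 0.871 and 0.987 in WT and 0.907 and 0.944 in the KO-labelled libraries, and that of Cd3d to Trac was 0.325 and 0.479 in WT and 0.389 and 0.382. All of these overlapped between the genotypes. Cd3e was 0.524 and 0.643 times Trac in WT but 0.204 and 0.232 times in the KO-labelled libraries, and 0.126 and 0.212 times Trbc2 in WT and 0.139 and 0.177 times in the KO-labelled libraries. Cd3e thus held an overlapping ratio to the beta constant gene and not to the alpha constant gene, the latter with the smallest exact permutation p of 0.333.

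By likeness of profile, measured as the root mean squared difference of centred log2 values over the 4 libraries, the genes nearest to the mean of Cd3d, Cd3e and Cd3g were Abhd10 at 0.018, Mrm1 at 0.030, Med26 at 0.057, Gsn at 0.058 and Cd34 at 0.073, none of which was called. The profiles of Cd3g, Cd3d and Cd4 were also used, after the values were seen. The nearest genes to Cd3g were Cenpk at 0.008, Tmem107 at 0.027, Snrnp27 at 0.031, Kxd1 at 0.034 and Akip1 at 0.035. Those nearest to Cd3d were Rasgrp3 at 0.051, Vsir at 0.068, Tmcc3 at 0.100, Hopx at 0.141 and Sdcbp2 at 0.144. The nearest genes to Cd4 were Cd2 at 0.036, Cnn3 at 0.054 and Trac at 0.066, followed by Kbtbd11 at 0.072 and Col4a2 at 0.085. Cd2, an adhesion receptor of T and NK cells, had 38.8 and 46.0 normalized counts in WT and 108 and 133 in the KO-labelled libraries (log2 fold change 1.53, adjusted p = 0.000655, edgeR). With 4 libraries many genes can lie this near.

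Per kb of the longest protein-coding transcript Cd3g was the highest of the 10 genes and Cd8b1 and Cd8a the lowest in both genotypes, while the order between them differed. In WT the mean was highest for Cd3g at 117.7 normalized counts per kb, followed by Cd3e at 27.9, Cd3d at 17.6, Cd6 at 15.5, Cd247 at 11.3, Cd5 at 8.92, Cd4 at 7.99, Cd28 at 7.50, Cd8b1 at 4.66 and Cd8a at 1.32. The ranges over the WT libraries separated Cd3g from Cd3e, Cd28 from Cd8b1 and Cd8b1 from Cd8a, and no other neighbours. In the KO-labelled libraries the order was Cd3g at 92.0 normalized counts per kb, Cd3d at 48.6, Cd6 at 42.5, Cd3e at 30.7, Cd5 at 25.6, Cd4 at 22.8, Cd28 at 21.5, Cd247 at 18.3, Cd8b1 at 7.48 and Cd8a at 1.28. There the ranges of Cd3d and Cd6 overlapped, as did those of each neighbour from Cd3e to Cd28, and the remaining neighbours were apart. With the union of exons as the length Cd3g was still first in WT, at 36.8, but in the KO-labelled libraries Cd3d stood at 43.3 and Cd3g at 28.8.

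Downstream of the CD3 chains, 16 of 42 listed T cell receptor signalling genes rose, against 8.8% of all genes tested. The median log2 fold change of the 42 was 0.27, against 0.01 over all genes tested. None was called lower by edgeR, where 2 were lower at an unadjusted p under 0.05, and 1, Sh2d2a, was called lower by DESeq2 and by limma. Of the 16, 5 rose by at least 2-fold. Lck, the kinase that CD4 and CD8 bring to the receptor, had 82.7 and 107 normalized counts in WT and 185 and 210 in the KO-labelled libraries (log2 fold change 1.08, adjusted p = 0.00192, edgeR). Malt1, which passes the signal on to NF-κB, rose by 1.09 on the log2 scale (adjusted p = 0.00143). Syk, a kinase better known from B and myeloid cells, had 17.1 and 27.6 normalized counts in WT and 63.6 and 61.0 in the KO-labelled libraries (log2 fold change 1.50, adjusted p = 0.00274, edgeR). The others were Themis (log2 fold change 1.57) and Trat1 (log2 fold change 1.80), a T cell signalling regulator and an adaptor of the receptor complex. Zap70, the kinase that docks on phosphorylated CD3 and zeta chains, had 105 and 91.8 normalized counts in WT and 72.6 and 82.1 in the KO-labelled libraries, a log2 fold change of -0.32 that was not called (adjusted p = 0.106, edgeR). The most abundant genes of the list were Ptprc, which encodes CD45 and rose by 0.39, Sh2d2a with a log2 fold change of -0.25 (adjusted p = 0.0678) and Sla with one of -0.09 (adjusted p = 0.501). The count of 16 fell to 8 without WT library 1, to 7 without WT library 2, to 9 without ICAM-1 KO library 2 and to 5 with no filter on low counts.

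**Figure D4:**
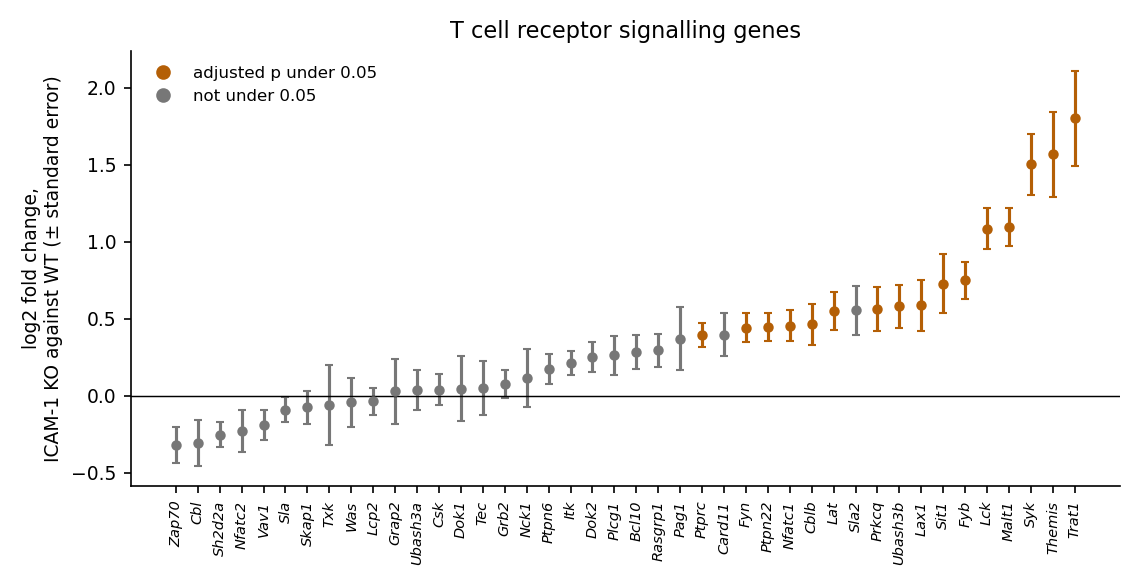
Log2 fold change of the KO-labelled libraries against WT, with its standard error, for the 42 listed T cell receptor signalling genes in order of the change. The 16 genes with an adjusted p under 0.05, in orange, are all above 0, and 5 of them, Lck, Malt1, Syk, Themis and Trat1, exceed 1.

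Other costimulatory receptors of T cells were counted from a list of 16. Of the 15 tested 8 rose, against 8.8% of all genes tested, and the median log2 fold change was 0.78. Besides Cd2, Slamf6 rose from 7.76 and 18.2 normalized counts to 45.5 and 52.6 (log2 fold change 1.94, adjusted p = 0.00483, edgeR) and Cd200 by 1.37 on the log2 scale (adjusted p = 0.00881). The most abundant receptors of the list were not called by edgeR: Pdcd1, the 1 gene lower at an unadjusted p under 0.05 and called lower by DESeq2, had a log2 fold change of -0.22, Icos of 0.07 and Ctla4 of 0.33. Of 13 transcription factors of the T lineage 2 rose, against 8.8% of all genes tested, and 0 were lower by edgeR, DESeq2 or limma even at an unadjusted p under 0.05. Tcf7, which encodes TCF-1, rose by 1.13 on the log2 scale (adjusted p = 0.0029, edgeR) and Ets1 by 0.32 (adjusted p = 0.0344), while Gata3 and Bcl11b had log2 fold changes of -0.14 and 0.22 and were not called.

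Some marker lists of other cell types held genes that rose alongside Cd3d, Cd4, Cd5, Cd6 and Cd28, and others did not. The counts below stand beside 8.8% of all genes tested called higher and 4.97% called lower. Among 9 tested markers of regulatory T cells 5 rose and 1 fell, and their summed normalized counts were 1484 to 1812 in WT and 1675 to 1794 in the KO-labelled libraries. Foxp3, their defining factor, had 42.4 and 53.9 normalized counts in WT and 157 and 181 in the KO-labelled libraries. It was 1 of 4 of these markers that rose by at least 2-fold. The largest values in the sum were those of Il2ra, Ctla4 and Tnfrsf18. Il2ra, the 1 that fell, is also on the ILC2 list. Of 10 endothelial markers 9 rose, their sum going from 165 to 177 in WT to 459.9 to 467 in the KO-labelled libraries. Of 11 tested macrophage and monocyte markers 9 rose (sums of 503 to 521 and 874 to 1092), as did 5 of 9 of lung epithelium (247 to 455 and 654 to 1529.8), 4 of 7 of B cells (235 to 383 and 575 to 691) and 3 of 6 of NK cells (297 to 340.4 and 359 to 412). Of 13 tested genes for the targets of the lineage antibodies, among them Cd3e, Cd4 and Cd5, 8 rose, and so did 3 of 5 tested neutrophil and 2 of 3 tested dendritic cell markers. The 8 include Ptprc (log2 fold change 0.39), which encodes CD45. Sorted cells were CD45-positive, and only the form CD45R was a target of the lineage antibodies. Of 9 tested markers of eosinophils, basophils and mast cells 3 rose and 2 fell (sums of 805 to 978 and 1018 to 1330.5). The 2 that fell encode eosinophil granule proteins, Epx with 1027 and 739 counts in WT and 0 in both KO-labelled libraries, and Prg2 with 1583 and 1041 counts in WT and 33 and 118 in the KO-labelled libraries. Of 5 tested mesenchymal markers 0 were called by edgeR, DESeq2 or limma, with 1 higher at an unadjusted p under 0.05 in edgeR (sums of 16.8 to 48.1 and 37.9 to 79.1), and of 2 tested erythroid markers 0 were called or passed an unadjusted p under 0.05 by any of the 3 tools (sums of 32.0 to 40.1 and 44.6 to 45.2). None of these lists held a marker at 0 in every library. Of 16 ILC2 markers 3 rose and 5 fell, and their sum was 9153 to 9699.9 in WT and 7849.6 to 8022 in the KO-labelled libraries. The 5 that fell were Arg1, Id2, Il13, Il2ra and Il5, and the 3 that rose were Il9r, Klrg1 and Ptprc. Gata3, Rora, Il1rl1 and Il7r were among the 8 not called. The part of other cells in the levels of Cd3d, Cd4, Cd5, Cd6 and Cd28 was not tested.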

How the data were processed

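Sorted lung ILC2s of 2 genotypes, 2 libraries each, were sequenced. The authors aligned the reads to mm10 with STAR and GENCODE M20 annotation and deposited expected counts for 22558 genes, estimated in Partek, so counts need not be whole. They also deposited an upper quartile normalized signal for 18324 genes, that is, 1 was added to each count and each library was scaled by 1 factor. Depth was 24796148 to 28782471 counts, and such reads are not independent molecules. The counts were rounded and tested with edgeR 4.0.16 in R 4.3.3 (quasi-likelihood test, upper quartile factors, no covariate) over 11711 genes, those whose normalized counts averaged 1 or more and summed to 10 or more, the study's own limits. P-values were adjusted by Benjamini-Hochberg over these genes and called under 0.05. The script was tested on simulated counts. With the spread of each gene as estimated, edgeR recovered 79.3% of changed genes and 13% of its calls were false. With the spread set to its trend over genes these were 77.8% and 4.11%. Groups came from the sample labels, and doses, pool size and sort from the labels or the study's methods. Lengths and overlaps came from GENCODE M21, and gene coordinates from the deposited tables, each end moved by 1 base.

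The members, lists and tests were chosen with earlier results of these data known. Named genes are the members, Icam1, up to 3 of the most abundant and 3 of the lowest adjusted p of each list, neighbours within 50 kb and the 5 nearest profiles. Themis, Trat1, Zap70, Cd86, Alcam, H2-Aa, Trbc2, Tcrg-C4, Il9r, Klrg1, Rora, Il1rl1 and Il7r were chosen after values were seen. So were the profiles of Cd3g, Cd3d and Cd4. Alternatives were TMM factors, DESeq2 1.42.0, limma 3.58.1, other filters, the older edgeR method, a replicate block, each library left out and the exon union as length.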

Additional observations from a re-analysis of the deposited data

How the results depend on the processing

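Cd4, Cd5, Cd6 and Cd28 were called higher in 12 of 12 alternatives, and Cd3d in 11 of 12, the exception being no filter on low counts (adjusted p = 0.0632, edgeR). Between 4 and 6 of the genes were called, with 5 to 6 when 1 library was left out, where the lone library of a group is assumed to vary like the others. The sixth was Cd247 with DESeq2 (adjusted p = 0.027), with the replicate block (adjusted p = 0.0372) and without WT library 2, or Cd3g without ICAM-1 KO library 2. Leaving out 1 library gave log2 fold changes of 1.09 to 2.07 for Cd3d, 1.32 to 1.74 for Cd4, 1.36 to 1.72 for Cd5, 1.26 to 1.75 for Cd6, 1.26 to 1.91 for Cd28, 0.30 to 1.32 for Cd247, 0.26 to 1.04 for Cd8b1 (not called in any) and -0.55 to -0.13 for Cd3g. Both Cd3e, at -0.15 to 0.57, and Cd8a, at -0.42 to 0.28, turned direction in this way. The 641 genes called at 2-fold or more became 312 with no filter and 388 to 676 with 1 library left out. The 16 signalling genes became 5 with no filter and 7 to 14 with 1 library left out. More genes are tested without a filter (22158), and the cause of the other shifts was not tested.

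Over all genes tested, same-numbered libraries of the 2 genotypes did not deviate together (correlation of -0.0582 from the group means). For Cd3d, Cd3e, Cd3g, Cd247, Cd4, Cd5, Cd6 and Cd28, however, library 2 was the higher in both genotypes. For Cd8a and Cd8b1 it was the higher in WT only. Nothing says that a number marks a shared litter or day. Under the replicate block 668 genes, 6 of the 10 described here and 15 signalling genes were called. With the exon union as length the levels of the CD3 genes other than Cd3d moved most, Cd3e to 9.99 and 11.0 and Cd3g to 36.8 and 28.8 normalized counts per kb. With 2 libraries a group no exact permutation test can go below 0.333.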
